A study of Mus musculus with 6 samples.

Results

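The 26 integrin subunits and 11 laminin chains of the mouse were followed in the developing molar, 37 of the 27506 genes in the count table. They were taken by symbol: every gene named Itga or Itgb with its subunit number or letter, and every gene named Lama, Lamb or Lamc with its chain number. RNA-seq had been performed on the pulp of lower first molars of C57BL/6 mice at P3.5 (3.5 days after birth). There were 3 libraries of Ror2 fl/fl controls and 3 of the genotype Osr2-Cre;Ror2 fl/fl, called mutants here. Both groups carried floxed Ror2 alleles, and the mutants also carried Cre recombinase under the control of Osr2. By the study's account, Cre is active in the mesenchyme of the tooth and in the bone around it, while epithelial cells are spared. Ror2 encodes a receptor of WNT ligands. The labels do not say whether a library held 1 animal or several, so p-values measure the spread between these libraries only.

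Integrins are receptors at the cell surface made of an alpha and a beta subunit, and they join the matrix outside the cell to actin or to keratin filaments inside it. Laminins are secreted heterotrimers of an alpha, a beta and a gamma chain that build basement membranes and are themselves bound by integrins. In the tooth a basement membrane lies between the dental epithelium, which makes enamel, and the dental mesenchyme, which makes dentin and pulp, and contact of each layer with it is known to accompany the differentiation of ameloblasts and odontoblasts.

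The libraries held between 56134770 and 62628940 estimated counts, and levels are given as CPM, a gene's count as parts of 1000000 counts of its library after TMM scaling, which corrects for differences in RNA composition. The tissue was checked against marker genes. The 9 dental mesenchyme and odontoblast markers summed to 14400, 45500 and 32200 CPM in control libraries 1 to 3 and to 35200, 12800 and 17600 CPM in mutant libraries 1 to 3. Most of each sum was Col1a1, so the sums follow this gene more than the other markers. Of the 9, 1 passed the test and was higher in the mutants. The 9 dental epithelium markers summed to 172000 to 192000 CPM in the controls and 186000 to 256000 CPM in the mutants, so that libraries labelled dental pulp also held much enamel epithelium RNA. Amelx, which encodes the main enamel protein, had the largest part of these sums, 88600 to 99200 CPM in the controls and 123000 to 160000 CPM in the mutants (log2 fold change 0.56, SE 0.21, edgeR adjusted p = 0.085). Of the other enamel genes, Ambn had a log2 fold change of -0.11 and Enam -0.47, and none of the 9 markers passed the test. Ror2 itself had 38.2, 36.2 and 36.7 CPM in the controls and 27.9, 28.1 and 26.3 CPM in the mutants (log2 fold change -0.43, SE 0.08, edgeR adjusted p = 0.013), so that its transcripts fell by 26.0% in the libraries as a whole. By the study's account, staining no longer showed Ror2 protein in the mutant mesenchyme, while the epithelium kept it. The part of epithelial RNA in the remaining Ror2 counts was not tested. Without control library 2 or 3 the adjusted p of Ror2 was 0.066 or 0.075.

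Among the subunits, 35 had enough counts to be tested and 6 changed. Itga8, Itgb8, Itga4 and Lama1 were lower in the mutants, and Itgb7 and Itga2b were higher (edgeR's quasi-likelihood test, Benjamini-Hochberg adjusted p under 0.05 over all genes). These 6 of 35 subunits are 17.1%, beside 20.2% of all 19330 genes tested, so the subunits did not stand out by number. Lower genes made up 9.84% of all genes and higher genes 10.4%. The median log2 fold change of the tested subunits was -0.08, beside 0.01 for all genes, and 21 were negative and 14 positive. In bulk tissue, fewer cells of a type and less RNA per cell cannot be told apart, and this holds for every change below. Itgad and Itgae, leukocyte alpha subunits, had at most 6.0 counts in any library and were not tested.

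**Figure D1:**
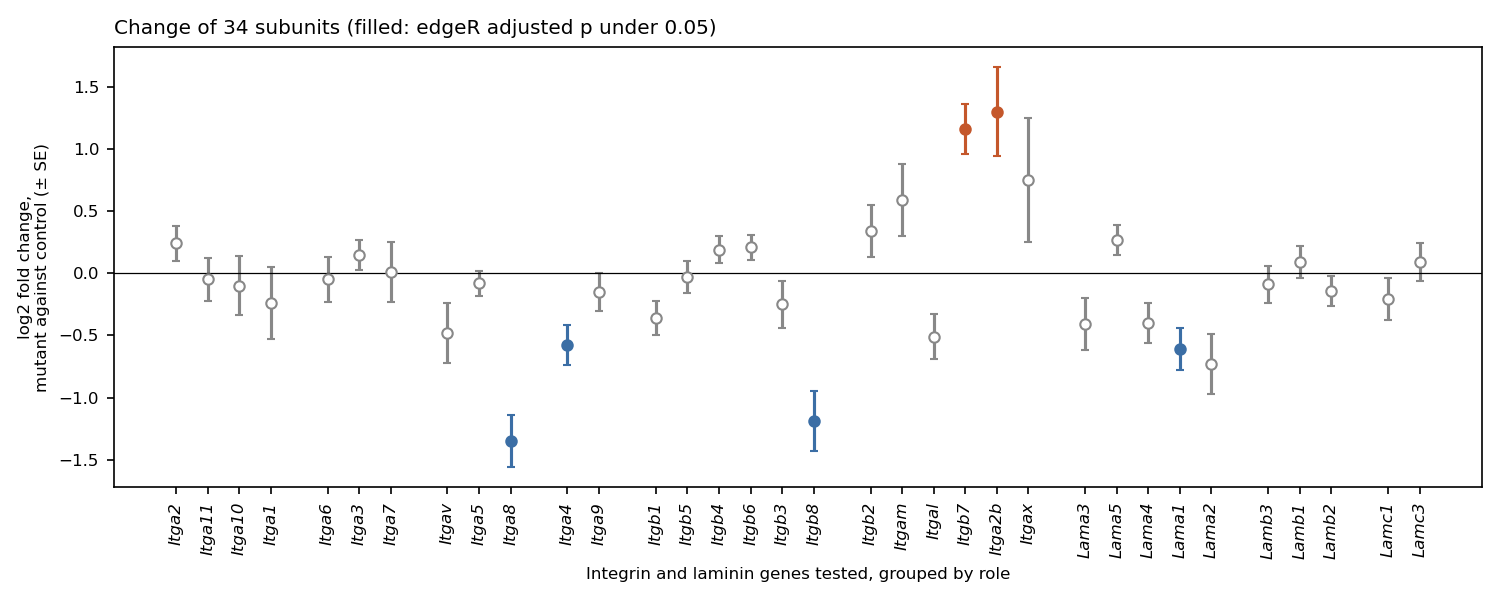
Log2 fold change of 34 of the 35 tested subunits, mutant against control, with bars of 1 SE and genes grouped by role along the x axis. Filled points mark the 6 genes with an edgeR adjusted p under 0.05, from Itga8 at -1.35 to Itga2b at 1.30, and most open points lie within 0.50 of 0.

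The promoters of 3 of these genes are shown because they stand for both directions, Itga8 and Itga4 lower and Itgb7 higher. Each is the 250 bases before the transcription start in RefSeq (GRCm38.p6), written from 5′ to 3′ on the strand of the gene, with CpG dinucleotides in capitals. Itga8 lies on the minus strand (chr2:12301945-12302194), Itga4 on the plus strand (chr2:79255176-79255425) and Itgb7 on the minus strand (chr15:102231936-102232185).
Itga8: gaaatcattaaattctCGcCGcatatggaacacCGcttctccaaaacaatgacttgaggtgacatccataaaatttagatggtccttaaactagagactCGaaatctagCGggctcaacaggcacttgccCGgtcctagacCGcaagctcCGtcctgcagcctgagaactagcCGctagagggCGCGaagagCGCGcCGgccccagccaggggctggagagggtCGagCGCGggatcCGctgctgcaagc
Itga4: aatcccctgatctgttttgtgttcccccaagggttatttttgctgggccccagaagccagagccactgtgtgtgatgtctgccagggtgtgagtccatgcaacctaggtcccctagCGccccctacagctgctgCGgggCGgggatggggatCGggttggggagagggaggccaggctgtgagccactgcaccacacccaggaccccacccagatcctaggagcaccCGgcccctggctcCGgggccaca
Itgb7: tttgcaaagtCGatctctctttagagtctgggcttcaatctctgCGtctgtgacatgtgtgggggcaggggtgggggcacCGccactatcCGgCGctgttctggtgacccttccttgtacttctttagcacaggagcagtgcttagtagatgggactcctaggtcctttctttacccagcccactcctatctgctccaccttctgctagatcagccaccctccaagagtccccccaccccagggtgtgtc
The 50 bases that follow the Itga8 window were not found in a GENCODE transcript of Itga8, so its start in RefSeq differs from those in GENCODE. The window of Itga8 had 18 CpG dinucleotides and a GC content of 56.4%, that of Itga4 had 6 and 64.0%, and that of Itgb7 had 5 and 56%. Over 32841 promoter windows of this length in the table, the medians were 6 CpG dinucleotides and 52.4% GC. The letters GGGCGG, the GC box, were found on either strand once in the Itga4 window and in neither of the others, while 32.7% of all windows held them. None of these 3 windows held, on either strand, the CCAAT box (CCAAT, in 33.9% of all windows), the TATA box (TATAAA, in 12.4%) or the AP-1 site (TGANTCA, in 6.75%). The table held 23 of the 37 subunits, and a missing letter string says only that it is not in this window.

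**Figure D2:**
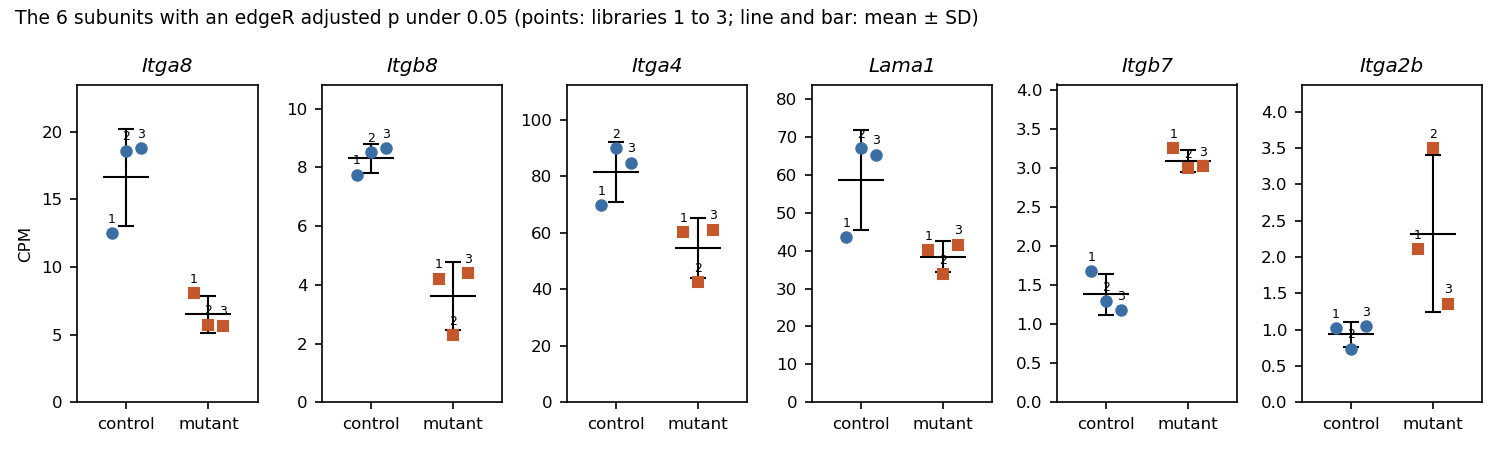
CPM of the 6 changed subunits in each library, with control and mutant libraries numbered 1 to 3, a line at the mean and a bar of 1 SD. No control library overlaps a mutant library in any panel, and the narrowest gaps are those of Lama1, between 43.5 and 41.5 CPM, and of Itga2b, between 1.05 and 1.36 CPM.

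Itga8, Itgav and Itga5 were grouped as alpha subunits that recognize the Arg-Gly-Asp sequence of matrix proteins. Itga2b, which can also recognize it, was placed with the subunits of blood cells. Itga8 (ENSMUSG00000026768, chr2:12106632-12301922, minus strand, mm10), which pairs with Itgb1 and binds nephronectin, had 12.5, 18.6 and 18.8 CPM in the controls and 8.08, 5.74 and 5.68 CPM in the mutants. Each mutant library lay below each control library, and control library 1 was the lowest control. The mean fell from 16.6 ± 3.58 to 6.50 ± 1.37 CPM (SD, n = 3 each), a 2.56-fold lower level (log2 fold change -1.35, SE 0.21, edgeR adjusted p = 0.0054). This was the only subunit that kept its call in all 15 alternative settings, with log2 fold changes between -1.54 and -1.10. The antisense transcript E030013I19Rik overlaps 372 bases of its exons and shares 3.66% of its stretches of 75 bases, and summing both counts gave -1.35. Nephronectin itself (Npnt) had 469, 366 and 390 CPM in the controls and 517, 407 and 546 CPM in the mutants, and the groups overlapped (log2 fold change 0.26, SE 0.15, edgeR adjusted p = 0.24).

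Itgav, the alpha subunit shared by most receptors of this group, was the most abundant of them per length, at 14.5 ± 1.6 CPM per kb of exon in the controls and 10.4 ± 3.52 in the mutants. Its libraries had 137, 171 and 160 CPM in the controls and 131, 68.5 and 137 CPM in the mutants, and mutant library 2 was far below the rest. The difference did not pass the test (log2 fold change -0.48, SE 0.24, edgeR adjusted p = 0.18), and without mutant library 2 it was -0.21. Itga5, the classical fibronectin receptor subunit, had 32.1 ± 3.14 and 30.4 ± 1.17 CPM (log2 fold change -0.08, SE 0.10, edgeR adjusted p = 0.59).

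Itgb8 (ENSMUSG00000025321, chr12:119158022-119238802, minus strand), which pairs with Itgav and binds latent TGF-beta, had 7.75, 8.51 and 8.66 CPM in the controls and 4.21, 2.29 and 4.39 CPM in the mutants. The lowest control library lay above the highest mutant library. Its level was 2.29-fold lower (log2 fold change -1.19, SE 0.24, edgeR adjusted p = 0.014). The call was lost without control library 2 (-1.18, edgeR adjusted p = 0.059) or control library 3 (-1.17, edgeR adjusted p = 0.061), when 910 and 872 genes were called in all in place of 3906. The ratio of Itgav to Itgb8 per length was 18.2, 20.7 and 19.0 in the controls and 32.0, 30.8 and 32.0 in the mutants. It was higher in the mutants without overlap, and it was chosen after the values were seen, as were the ratios below. Of the latent TGF-beta genes in the ligand list, Ltbp1 fell from 63.2 ± 9.91 to 39.6 ± 7.70 CPM (log2 fold change -0.67, SE 0.17, edgeR adjusted p = 0.027). Tgfb1 and Tgfb3, which encode the growth factors, had log2 fold changes of 0.08 and -0.16 with edgeR adjusted p = 0.75 and 0.52.

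The other beta subunits did not pass the test. Itgb1, the partner of most alpha subunits, had 468, 502 and 497 CPM in the controls and 416, 315 and 414 CPM in the mutants. All 3 mutant libraries were below the controls, mutant library 2 most of all, and the mean was 489 ± 18.3 against 382 ± 58.1 CPM (log2 fold change -0.36, SE 0.14, edgeR adjusted p = 0.097). DESeq2's Wald test placed the same change past the threshold (adjusted p = 0.042), alone among the 15 alternative settings. An offset for GC content gave Itgb1 -0.21 (edgeR adjusted p = 0.27), and without mutant library 2 the change was -0.22. Itgb6, an epithelial partner of Itgav, had 76.2, 70.7 and 72.3 CPM in the controls and 92.3, 83.5 and 77.4 CPM in the mutants, without overlap (log2 fold change 0.21, SE 0.10, edgeR adjusted p = 0.15). Offsets for GC content and exon length gave Itgb6 0.39 with an adjusted p of 0.045. Itgb4, the hemidesmosome subunit of epithelia, Itgb5 and Itgb3 had log2 fold changes of 0.19, -0.03 and -0.25, and their groups overlapped.

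The separation of the groups was counted for every subunit. The libraries of the controls and the mutants did not overlap for 12 of the 35 tested subunits, 4 higher and 8 lower in the mutants, which is 34.3%, beside 44.7% of all genes tested.

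Itga4 and Itga9 form a branch of their own among the alpha subunits, and Itga4 binds fibronectin and VCAM1. Itga4 (ENSMUSG00000027009, chr2:79255426-79333123, plus strand) had 69.7, 89.9 and 84.7 CPM in the controls and 60.2, 42.5 and 61 CPM in the mutants. Its libraries did not overlap, and the level was 1.49-fold lower (log2 fold change -0.58, SE 0.16, edgeR adjusted p = 0.040). The call was lost in 6 of 15 settings, which include an offset for GC content (-0.39, adjusted p = 0.095), offsets for GC content and exon length (-0.20, adjusted p = 0.17) and leaving out control library 2 (-0.51), control library 3 (-0.56) or mutant library 1 (-0.65). Its transcripts are long, 13978 bases of exon with 43.5% GC, and 1124 of these bases overlap Cerkl on the other strand. Itga9 had 15.5 ± 1.53 and 13.9 ± 2.37 CPM (log2 fold change -0.15, SE 0.15, edgeR adjusted p = 0.48).

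The subunits of blood cells held both genes that rose. Itgb7 (ENSMUSG00000001281, chr15:102215995-102231944, minus strand), which pairs with Itga4 or Itgae in lymphocytes, had 1.68, 1.30 and 1.18 CPM in the controls and 3.26, 3.0 and 3.03 CPM in the mutants. The mutant libraries lay close together and far above the controls, a 2.23-fold higher level (log2 fold change 1.16, SE 0.20, edgeR adjusted p = 0.0086). Without control library 2 or 3 the change was 1.11 or 1.04 with adjusted p = 0.054 or 0.055, and it passed the threshold in the other 13 settings. The 10 leukocyte markers summed to 68.7 to 83.8 CPM in the controls and 68.3 to 143 CPM in the mutants. The highest of these sums was that of mutant library 2, and S100a8 was its largest part. Of the 7 tested, S100a8 and Tyrobp rose, Adgre1 fell, and Ptprc, which marks all leukocytes, had 5.54 ± 1.09 and 4.97 ± 1.75 CPM (log2 fold change -0.16, SE 0.26, edgeR adjusted p = 0.69). The T lymphocyte marker Cd3e stayed at or below 0.139 CPM in every library, and the part of leukocytes in the rise of Itgb7 was not tested.

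Itga2b (ENSMUSG00000034664, chr11:102453297-102470122, minus strand), the fibrinogen receptor subunit of platelets and megakaryocytes, had 1.02, 0.738 and 1.05 CPM in the controls and 2.11, 3.5 and 1.36 CPM in the mutants. The mutant libraries spread over a wide range, with library 2 the highest (log2 fold change 1.30, SE 0.36, edgeR adjusted p = 0.038). The call was lost in 8 of 15 settings: with the offset for GC content (adjusted p = 0.062), with offsets for GC content and length (0.055), with a term for the sample index of the labels (0.080), and without any 1 of control libraries 1, 2 and 3 or mutant libraries 1 and 2 (0.066 to 0.14). The 5 platelet markers summed to 7.28 to 8.65 CPM in the controls and 4.51 to 6.85 CPM in the mutants, and most of each sum was Pf4. The 2 markers with enough counts to be tested differed in sign. Pf4, a chemokine of platelet granules, fell from 7.26 ± 0.650 to 4.13 ± 0.700 CPM (log2 fold change -0.81, SE 0.16, edgeR adjusted p = 0.015), while Gp1ba, a platelet receptor for von Willebrand factor, had 0.652, 0.755 and 0.648 CPM in the controls and 1.17, 1.44 and 0.695 CPM in the mutants (log2 fold change 0.68, SE 0.32, edgeR adjusted p = 0.15). Ppbp, Gp9 and Gp5 were at or below 0.312 CPM in every library, and the part of platelets in the rise of Itga2b was not tested. Itgb3, the partner of Itga2b on platelets, had 8.09 ± 1.14 and 6.78 ± 1.47 CPM.

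The other blood cell subunits were low and did not pass the test. Itgb2, the beta subunit shared by several leukocyte integrins and the most abundant of the blood cell group per length in the controls, had 0.707 ± 0.0753 CPM per kb of exon there and 0.898 ± 0.182 in the mutants (log2 fold change 0.34, SE 0.21, edgeR adjusted p = 0.26). Itgal, its partner on lymphocytes, had 3.85, 3.57 and 3.34 CPM in the controls and 2.94, 2.22 and 2.39 CPM in the mutants, lower without overlap (log2 fold change -0.51, SE 0.18, edgeR adjusted p = 0.073). An offset for GC content placed Itgal past the threshold (-0.65, edgeR adjusted p = 0.043), as did DESeq2's Wald test (-0.51, adjusted p = 0.047). Itgam and Itgax, its partners on myeloid cells, had log2 fold changes of 0.59 and 0.75 with overlapping groups, and 65.2% of the 75-base stretches of Itgam also lie in the readthrough gene Gm49368, so its count is uncertain.

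Among the subunits that bind collagen, none passed the test, and log2 fold changes ran from -0.24 for Itga1 to 0.24 for Itga2. Itga2, an epithelial and platelet collagen receptor and the most abundant of the 4 per length, had 76.2, 69.1 and 65.2 CPM in the controls and 86.5, 66.8 and 94.5 CPM in the mutants. The groups overlapped through mutant library 2 (log2 fold change 0.24, SE 0.14, edgeR adjusted p = 0.24). Without mutant library 2 the change was 0.38 with an adjusted p of 0.034, and offsets for GC content and exon length gave 0.48 with 0.031. Itga10 and Itga11, collagen receptors of cartilage and of mesenchyme, had 26.7 ± 5.87 and 28.1 ± 6.13 CPM in the controls and 24.9 ± 7.24 and 27.1 ± 3.53 CPM in the mutants.

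The subunits that bind laminin did not pass the test either. Itga6, which with Itgb4 anchors epithelial cells to the basement membrane, was the most abundant of them per length, with 224, 218 and 216 CPM in the controls and 223, 154 and 257 CPM in the mutants. The control libraries lay close together while the mutant libraries spread on both sides of them (log2 fold change -0.05, SE 0.18, edgeR adjusted p = 0.85). Itga3, the other laminin receptor subunit of epithelia, had 113 ± 4.29 and 126 ± 16.7 CPM (log2 fold change 0.15, SE 0.12, edgeR adjusted p = 0.37). Itga7, which marks skeletal and cardiac muscle, had 2.06 ± 0.552 and 2.07 ± 0.218 CPM (log2 fold change 0.01, SE 0.24, edgeR adjusted p = 0.99), while the 7 skeletal muscle markers all fell, from sums of 12.1 to 39.6 CPM to sums of 2.69 to 3.73 CPM.

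Of the 11 laminin chains, 1 changed, which is 9.09%, beside 20.2% of all genes. Lama1 (ENSMUSG00000032796, chr17:67697259-67822647, plus strand), an alpha chain of embryonic and epithelial basement membranes, had 43.5, 67.0 and 65.3 CPM in the controls and 40.1, 33.7 and 41.5 CPM in the mutants. Control library 1 lay just above the mutants and the other controls far above them (log2 fold change -0.61, SE 0.17, edgeR adjusted p = 0.041). The call was lost in 6 of 15 settings, with the sample index as a term (-0.59) and without control library 2 (-0.51), control library 3 (-0.53) or mutant library 1 (-0.64), 2 (-0.51) or 3 (-0.67). Without control library 1 it was -0.79 with an adjusted p of 0.013. Control library 1 was also the control with the lowest sum of dental mesenchyme and odontoblast markers, most of which was Col1a1. Its title carries the letters WW, while those of control libraries 2 and 3 carry OW, and the labels do not explain these letters. Whether either point bears on Lama1 or Itga8 was not tested.

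Lama2 and Lama4, alpha chains of muscle, nerve and vessel basement membranes, were both lowest among the controls in control library 1. Lama2 had 51.2, 83.3 and 80.4 CPM in the controls and 53.7, 29.8 and 45.9 CPM in the mutants, with overlap through control library 1 and mutant library 1 (log2 fold change -0.73, SE 0.24, edgeR adjusted p = 0.066). Scaling by library size alone placed Lama2 past the threshold (-0.75, adjusted p = 0.031), as did DESeq2 (-0.73, adjusted p = 0.016). Lama4 had 61.7, 85.4 and 87.6 CPM in the controls and 65.3, 49.2 and 63.4 CPM in the mutants (log2 fold change -0.40, SE 0.16, edgeR adjusted p = 0.11). Beside them, the 8 endothelial markers summed to 219 to 293 CPM in the controls and 203 to 274 CPM in the mutants, and the 6 mural cell markers to 275 to 343 and 220 to 297 CPM. No endothelial or mural marker passed the test. The 7 skeletal muscle markers all fell, with a median log2 fold change of -3.71. The 5 Schwann cell markers summed to 16.8 to 24.4 CPM in the controls and 21 to 23.6 CPM in the mutants, and Cdh19, one of them, had a log2 fold change of -1.49 (edgeR adjusted p = 0.063). The part of these cells in the values of Lama2 and Lama4 was not tested.

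Lama3 and Lamb3 are chains of the laminin that anchors stratified and dental epithelia. Lama3 had 1020, 1100 and 1020 CPM in the controls and 957, 538 and 870 CPM in the mutants, lower without overlap (log2 fold change -0.41, SE 0.21, edgeR adjusted p = 0.18). Lamb3 had 872, 855 and 798 CPM in the controls and 939, 652 and 781 CPM in the mutants (log2 fold change -0.09, SE 0.15, edgeR adjusted p = 0.70). Mutant library 2 was the lowest library for both chains. Without it, the log2 fold changes were -0.19 for Lama3 and 0.04 for Lamb3.

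The remaining chains build the laminins of most other basement membranes. Lama5, the most widespread alpha chain, had 265, 237 and 253 CPM in the controls and 288, 282 and 341 CPM in the mutants, higher without overlap (log2 fold change 0.27, SE 0.12, edgeR adjusted p = 0.13). Lamb1 and Lamc1, the most common beta and gamma chains, had 294 ± 22.1 and 622 ± 30.8 CPM in the controls and 313 ± 39.4 and 537 ± 120 CPM in the mutants. Lamb2 and Lamc3 had log2 fold changes of -0.14 and 0.09. The groups overlapped for each of these chains but Lama5, and none of them passed the test.

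**Figure D3:**
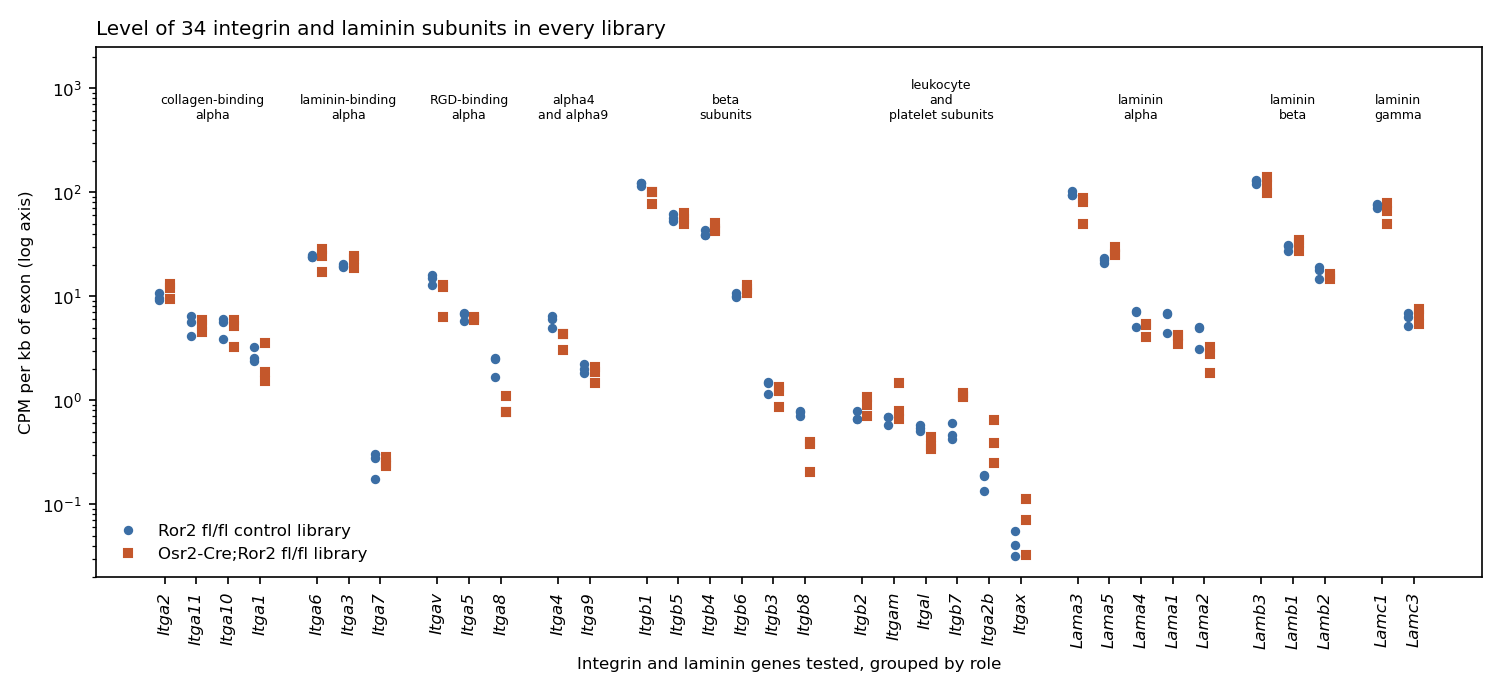
Level of 34 tested subunits in every library, as CPM per kb of exon on a log axis, with circles for control and squares for mutant libraries and genes grouped by role. Lamb3, Itgb1, Lama3 and Lamc1 stand far above most others in both groups, and mutant library 2 gives the lowest square of several abundant chains.

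Levels were compared between genes as CPM per kb of exon. Among abundant genes, the order in the controls ran from Lamb3 at 127 ± 5.82 over Itgb1 at 120 ± 4.48 and Lama3 at 97.5 ± 3.97 to Lamc1 at 75.2 ± 3.72 CPM per kb. The ranges of mean ± SD of Lamb3 and Itgb1 overlapped, while those of Itgb1 and Lama3, and of Lama3 and Lamc1, did not. The mutants gave the same order for these 4 genes, with Lamb3 at 120 ± 21.8, Itgb1 at 93.6 ± 14.2, Lama3 at 73.4 ± 20.6 and Lamc1 at 64.9 ± 14.5 CPM per kb. There, the ranges of mean ± SD overlapped for all neighbours in this order. Itga6 and Itga3, at 24.3 ± 0.446 and 19.8 ± 0.751 CPM per kb in the controls, were the most abundant alpha subunits. Itga8 moved from rank 25 to rank 30 of 37 and Itgb8 from rank 28 to rank 33, while Itgb7 moved from rank 32 to rank 27.

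The makeup of each chain family was then computed within each library, as the share of a chain in the summed CPM per kb of its family, which does not depend on scaling between libraries. An exact two-sided permutation test with 3 libraries a group cannot give a p below 0.1, and 37 shares were computed, so no share could pass the threshold. Among the alpha chains, Lama3 made up 71.4 ± 1.43% in the controls and 65.0 ± 5.32% in the mutants, with overlap (exact permutation p = 0.2, adjusted p = 0.352). Lama5 made up 16.2 ± 1.54% in the controls and 24.5 ± 4.77% in the mutants, without overlap (exact permutation p = 0.1, adjusted p = 0.247).

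Among the beta subunits, the share of Itgb1 was 51.9 ± 2.53% in the controls and 44.2 ± 2.38% in the mutants, and that of Itgb4 was 17.5 ± 0.834% and 21.9 ± 1.43%. The small shares of Itgb8 and Itgb7 were 0.326 ± 0.0224% and 0.217 ± 0.0381% in the controls and 0.153 ± 0.0353% and 0.534 ± 0.0555% in the mutants. The groups overlapped for none of these 4 beta subunits, nor for Itgb6, while those of Itgb2, Itgb3 and Itgb5 overlapped. Each of the 4 shares reached the smallest p that the exact permutation test allows, 0.1, with an adjusted p of 0.247 over the 37 shares. Shares of a family depend on each other, and the CPM of Itgb4 itself overlapped between the groups (edgeR adjusted p = 0.25). Among levels, 44.7% of all genes tested did not overlap.

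**Figure D4:**
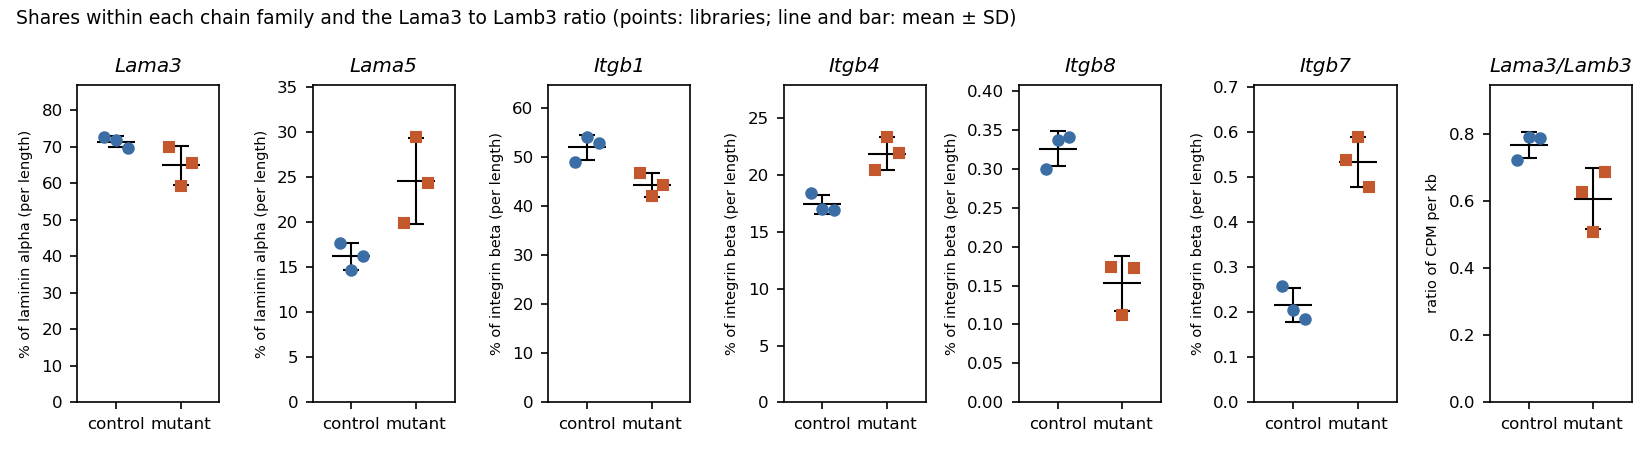
Shares of 6 chains within their family, in % of summed CPM per kb, and the ratio of Lama3 to Lamb3, with a point for each library, a line at the mean and a bar of 1 SD. The groups overlap for Lama3 only, and the ratio lies at 0.722 to 0.789 in the controls and 0.507 to 0.685 in the mutants.

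Ratios between chains of 1 protein were chosen after the values were seen, 13 in all, and are given as values. The ratio of Lama3 to Lamb3 per length was 0.722, 0.789 and 0.788 in the controls and 0.627, 0.507 and 0.685 in the mutants, a log2 difference of -0.35. The mutant libraries lay below the controls, with mutant library 2 the lowest. The genes differ in GC content, 50.8% and 55.4%, and in exon length, 10745 and 6612 bases. With offsets for GC content and exon length the log2 fold changes of the chains were -0.31 and -0.14. The ratio of Itga3 to Itgb1 was 0.181, 0.159 and 0.158 in the controls and 0.241, 0.245 and 0.223 in the mutants. Of the 13 ratios, only those of Lama5 and of Lama4 to Lamc1 overlapped between the groups. Separation was thus common among these chosen pairs and not particular to those printed.

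Over all genes, the change followed base composition and length. The median log2 fold change was -0.278 in the fifth of genes with the lowest GC content and 0.216 in that with the highest, and it was 0.192 for the shortest and -0.187 for the longest exon lengths. The subunits followed this trend at low GC content, but those with a higher GC content were not positive as a set. Of the 12 tested subunits with a GC content under 50%, 9 were negative and 3 were called lower, with a median of -0.38, and of the other 23, 12 were negative with a median of -0.03. Itga8, Itgb8 and Itga4 have 44.6%, 43.1% and 43.5% GC, and Itgb7 and Itga2b have 58.1% and 58.2%. With an offset for GC content the calls were 1 higher and 4 lower, and with offsets for GC content and exon length 3 higher and 3 lower, in place of 2 and 4. With the first, Itgal was called lower and Itga4 was not. The median of the tested subunits was -0.21 with the first and -0.14 with both, beside -0.08 without an offset. Negative values numbered 24 and 20, beside 21. Itga8 (-1.10), Itgb8 (-0.86), Lama1 (-0.58) and Itgb7 (0.96) kept their calls with both offsets, and the part of base composition in the other changes was not tested further.

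**Figure D5:**
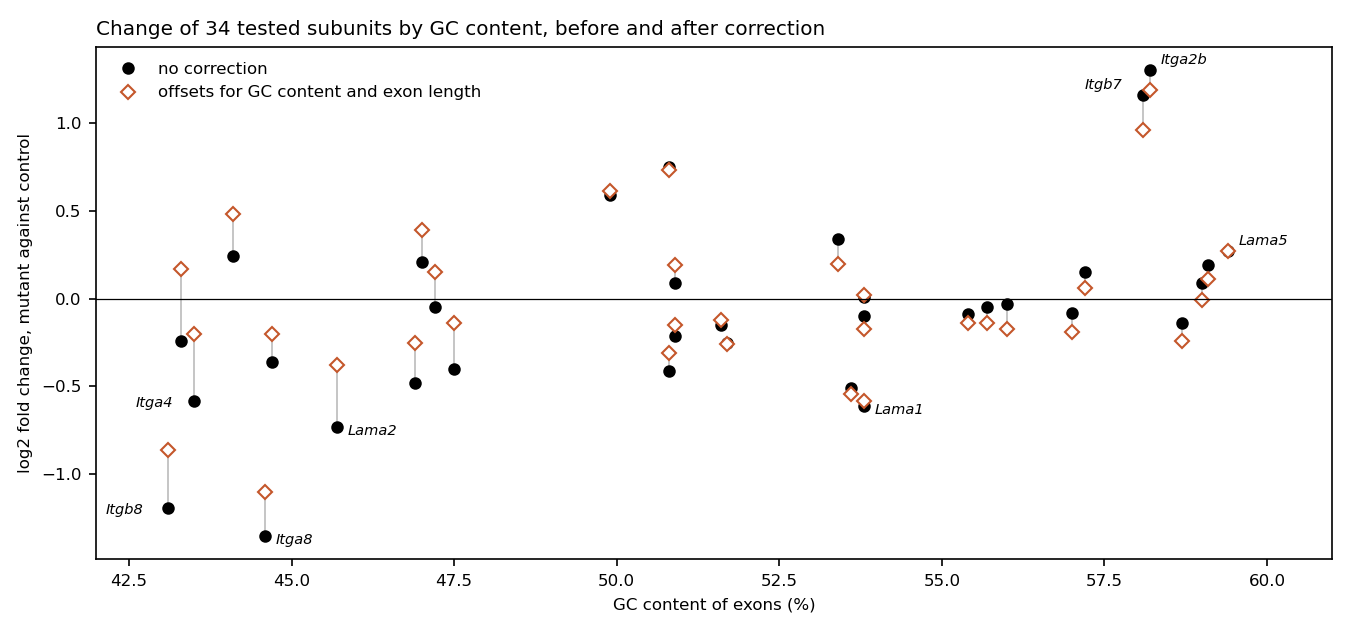
Log2 fold change of 34 of the 35 tested subunits, mutant against control, by GC content of their exons in %, with filled circles for the values without correction and open diamonds for those with offsets for GC content and exon length. Grey lines join the values of a gene, and Itga4 moves from -0.58 to -0.20 while Itga8 moves from -1.35 to -1.10.

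The genes around these receptors were taken from 3 lists. Of 34 genes that join integrin tails to actin or signal from them, 1 rose and 4 fell, which is 14.7%, beside 20.2% of all genes, with a median log2 fold change of -0.08. Lims1, the adaptor PINCH1 that binds integrin-linked kinase, fell from 53.0 ± 5.13 to 34.9 ± 3.09 CPM (log2 fold change -0.60, SE 0.11, edgeR adjusted p = 0.011). Fermt2, an activator of integrins, fell from 66.2 ± 6.12 to 48.0 ± 7.83 CPM (log2 fold change -0.46, SE 0.14, edgeR adjusted p = 0.047). Kank2 and Tns4, adhesion scaffolds, had log2 fold changes of -0.35 and -0.46 with edgeR adjusted p = 0.038 and 0.045, and Git1, a scaffold of paxillin signaling, had 0.40 with 0.031. Talin 1 (Tln1), vinculin (Vcl) and focal adhesion kinase (Ptk2) did not pass the test, with -0.31, -0.47 and -0.09. Without control library 2 or 3, each of the 5 calls was lost, and Lims1 had adjusted p = 0.061 and 0.064.

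Of 26 partners of laminin in the basement membrane, 2 fell and 1 rose, which is 11.5%, beside 20.2% of all genes, with a median log2 fold change of -0.09. Col4a5, a collagen IV chain, had 21.5, 24.3 and 23.2 CPM in the controls and 9.32, 7.89 and 7.27 CPM in the mutants (log2 fold change -1.50, SE 0.13, edgeR adjusted p = 0.00031). Col4a6, which lies beside Col4a5 and forms trimers with it, had 5.88, 6.48 and 6.07 CPM in the controls and 2.27, 2.53 and 1.39 CPM in the mutants (log2 fold change -1.58, SE 0.23, edgeR adjusted p = 0.0042). Neither gene's groups overlapped, and both kept their calls in all 14 alternative settings. The common collagen IV chains Col4a1 and Col4a2 had log2 fold changes of -0.15 and -0.05 and did not pass the test. Nid2, a nidogen that links laminin to collagen IV, had 40.2, 53.7 and 53.9 CPM in the controls and 42.3, 27.0 and 30.6 CPM in the mutants, with overlap (log2 fold change -0.56, SE 0.18, edgeR adjusted p = 0.062). It passed the threshold in 5 of 14 settings, DESeq2's test (-0.57), scaling by library size (-0.59), both composition offsets (-0.72 and -0.65) and the fit without mutant library 1 (-0.77). Bcam, a receptor of Lama5 that is no integrin, had 366, 251 and 275 CPM in the controls and 478, 420 and 598 CPM in the mutants (log2 fold change 0.75, SE 0.19, edgeR adjusted p = 0.028), and lost its call in 6 of 14 settings. These were both composition offsets (0.52 and 0.56) and the fits without control library 2 (0.63), control library 3 (0.68), mutant library 1 (0.78) or mutant library 3 (0.59).

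Of the 24 tested ligands of integrins other than laminins and collagens, 3 rose and 5 fell, which is 33.3%, beside 20.2% of all genes, with a median log2 fold change of -0.15. Edil3, an RGD protein bound by Itgav receptors, had 6.41, 10.9 and 11.4 CPM in the controls and 4.97, 2.74 and 3.73 CPM in the mutants (log2 fold change -1.33, SE 0.28, edgeR adjusted p = 0.016). Postn, a matrix protein of the periodontium, fell from 142 ± 31.0 to 88.5 ± 4.56 CPM (log2 fold change -0.68, SE 0.16, edgeR adjusted p = 0.024). Icam1, the ligand of the Itgb2 receptors, had 21.2, 18.8 and 19.6 CPM in the controls and 33.4, 31.0 and 33.1 CPM in the mutants (log2 fold change 0.71, SE 0.09, edgeR adjusted p = 0.0030), and rose in all 14 alternative settings. Egfl7, an endothelial ligand of Itgav receptors, rose from 19.0 ± 1.18 to 33.4 ± 8.49 CPM (log2 fold change 0.82, SE 0.17, edgeR adjusted p = 0.016). Edil3 and Egfl7 lost their calls without control library 2 or 3, and Postn in 6 of 14 settings, which include both composition offsets (-0.42 and -0.29).

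The other ligands that passed the test are named after their values were seen, as are Ltbp1 and Fermt2 above. Fn1, fibronectin, had 322, 648 and 568 CPM in the controls and 292, 160 and 222 CPM in the mutants (log2 fold change -1.19, SE 0.29, edgeR adjusted p = 0.027), and control library 1 lay just above the mutants. Fbn1, fibrillin 1, had a log2 fold change of -0.83 with edgeR adjusted p = 0.047, and Spp1, osteopontin, had 1.23 with 0.039. Without control library 2 or 3, Icam1 was the only ligand that passed the test. Vcam1, the other ligand of Itga4, had 4.2 ± 1.06 and 5.48 ± 0.222 CPM (log2 fold change 0.38, SE 0.20, edgeR adjusted p = 0.20).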

How the data were processed

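RNA-seq libraries of dental pulp from 3 Ror2 fl/fl controls and 3 Osr2-Cre;Ror2 fl/fl mice were compared. Groups followed the genotype in the labels, and 6 further columns of the count table that the labels assign to no sample were not used. Estimated counts were deposited without scaling, and 47.8% of the values were whole numbers. The methods name single-end reads of 75 cycles, mm10 and TopHat, while the submitters' processing notes name STAR 2.6.1d and Partek. The use of strand is not given in the sources used here, so overlapping antisense genes cannot be told apart. A second deposited table of normalized values was not used.

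Estimated counts were rounded, since the design assumed whole counts. Libraries (56134770 to 62628940 estimated counts) were scaled by TMM, genes were kept by filterByExpr, and groups were compared with edgeR 4.0.16 (R 4.3.3), its quasi-likelihood test and Benjamini-Hochberg adjustment over 19330 genes with a threshold of 0.05. The script was tested on simulated counts. SE is the log2 fold change divided by the square root of the F statistic. Exon lengths, GC content and coordinates came from GENCODE M21 (mm10), which matched all 27506 genes, and promoters from RefSeq (GRCm38.p6), of which 24 of 26 subunit windows were followed by 50 bases found in a GENCODE transcript of the gene. Shares were compared with exact permutation tests in scipy 1.17.1.

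The subunits and all gene lists were chosen with earlier results of these data known. Named genes are subunits with an adjusted p-value under 0.05, Itgb1, the most abundant subunit of each role per length, the 4 genes with the smallest p in each list, and Ror2. Alternatives were DESeq2 1.42.0, its size factors, scaling by the library size only, no filter or a stricter one on low counts, the sample index as a block, offsets for GC content and exon length, counts summed with genes sharing at least 20 stretches of 75 bases (for subunits only), shares not divided by length, and leaving out each library. The values of 1 subunit and 2 marker genes are not reported here, although they enter the counts and sums.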

Additional observations from a re-analysis of the deposited data

How the results depend on the processing

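In place of 4 subunits lower and 2 higher, DESeq2's Wald test called 7 lower, and the GC offset called 1 higher. The adhesion list had 5 calls, against 10 with DESeq2 and 8 with GC and length offsets. With the sample index as a replicate block, 1 subunit was higher and 2 lower, and the adhesion and ligand lists had 1 and 4 calls in place of 5 and 8. The study's methods mention 3 pairs of samples but do not say which libraries form a pair. Deviations of same-numbered libraries correlated at -0.100, -0.080 and -0.004, so the numbers were not taken as pairs. The labels do not say whether controls and mutants were prepared together. If they were not, that difference could not be told apart from genotype. Leaving out 1 library gave 0 to 3 subunits higher, 1 to 6 lower, 0 to 7 adhesion genes and 1 to 9 ligand genes. Over all genes, 3906 were called, 5410 with DESeq2, 2013 with the block, and 872 to 5001 with a library left out. No subunit named with full statistics changed direction past the threshold. Without division by length, the differences in the shares of Itgb8 (-0.423 in place of -0.173 points) and Itgb7 (0.181 in place of 0.317) moved by more than 1 SD of the libraries. Without that division a share grows with exon length, which is 11060 bases for Itgb8 and 2770 for Itgb7. The cause of the other moves was not tested. Depth limited Itgad and Itgae, which had at most 6.0 counts, while 3 libraries a group limited all exact tests to p = 0.1.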
